A study of Mus musculus with 12 samples.

Results

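The 40 genes described here encode the machinery with which the endoplasmic reticulum (ER) takes in, folds, glycosylates and clears secreted and membrane proteins. They were chosen by name as ER chaperones and their partners, subunits of the translocation channel, signal peptidase and oligosaccharyltransferase, and factors of ER-associated degradation. All 40 were found by Entrez gene identifier among the 9842 genes of the deposited expression table. They fell into 8 roles, with 5 chaperones, 5 co-chaperones and stress-induced luminal factors, 7 genes of disulfide formation, 5 of the translocation channel, 4 of the translocon-associated protein complex, 3 of signal peptidase, 6 of oligosaccharyltransferase and 5 of ER-associated degradation.

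RNA was sequenced from mouse B cells of female C57BL/6J animals, either wild type or deficient for LSD1 (gene Kdm1a), a histone demethylase that removes methyl groups from lysine 4 of histone H3. Transitional B cells (TrB), the immature B cells that enter the spleen, were sorted from spleen without stimulation as B220+ CD93+ cells lacking Thy1.1, F4/80 and CD11b. The eMZB groups are marginal zone B cells made ex vivo: transitional cells were cultured for 3 days with BAFF, a B cell survival factor, and with DL1, a ligand of Notch receptors, and the B220+ CD21+ CD1d+ cells among them were sorted under the exclusions used for TrB. The 4 groups, TrB_WT, TrB_KO, eMZB_WT and eMZB_KO, held 3 libraries each, and every library was made from 2000 cells. How LSD1 was deleted, the age of the mice and whether the libraries of a group came from separate animals are not given in the sources used. The p-values here set differences only against the variation of libraries within groups, estimated over the 4 groups together. That variation may be technical. The comparison of eMZB with TrB joins cell type, 3 days of culture and stimulation, which cannot be told apart.

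In the secretory pathway, a ribosome carrying a signal sequence docks at the Sec61 channel, signal peptidase cuts the signal off, and oligosaccharyltransferase attaches a preformed glycan to the growing chain. The Hsp70 chaperone BiP and the lectins calreticulin and calnexin then hold the chain while protein disulfide isomerases join its cysteines, and chains that fail to fold are pulled back into the cytosol and degraded. A B cell that becomes an antibody-secreting cell enlarges this machinery through the unfolded protein response, in which the transcription factors XBP1 and ATF6 act on promoters holding an ER stress element. Marginal zone B cells are known for turning into antibody-secreting cells quickly.

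Because of that element, the promoters of the members were read first. Of the 40 genes, 34 had an entry in the RefSeq promoter table (GRCm38.p6, 250 bases before to 50 bases after each start), and Hyou1, Sec61a1, Ssr2, Spcs3, Manf and Derl1 had none. The ER stress element, searched on both strands as CCAAT, any 9 bases and CCACG, was matched in 9 of the 34 genes, which is 26.5%. The same search matched 37 of 27025 genes in the whole table, or 0.137%, and 19 of the 7831 genes that were also in the expression table, or 0.243%. The genes were not chosen by promoter sequence. They were chosen as ER machinery, stress-induced factors among them, which the unfolded protein response raises through this element. A high share of matches is therefore not independent of the choice, and the matches are shown as a description. Each is written in the direction of the element, with its 2 fixed parts in capitals.
Hspa5: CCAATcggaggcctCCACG
Calr: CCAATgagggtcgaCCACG
Canx: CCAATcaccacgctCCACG
Pdia6: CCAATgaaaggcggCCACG
Ero1b: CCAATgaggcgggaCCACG
Dnajc3: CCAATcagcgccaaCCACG
Creld2: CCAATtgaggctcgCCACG
Syvn1: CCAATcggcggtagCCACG
Hsp90b1, first match: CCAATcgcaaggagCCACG
Hsp90b1, second match: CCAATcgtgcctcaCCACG

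All 10 matches lay upstream of the start, between positions -212 and -26. A shorter form, ER stress element II (ATTGG, any base, CCACG, both strands), was matched in Herpud1 and Dnajb11, against 12 of the 27025 genes of the table. The CCACG part alone, on either strand, was in 28 of the 34 genes (82.4%) and in 35.5% of all genes. It is a part of both elements, so these counts overlap.

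The 250 bases upstream of 3 members are given to show windows with and without the element for genes described at length below; no link between these sequences and the levels was tested. Hspa5, which encodes BiP, and Syvn1, a ubiquitin ligase, both hold the element and differed between the cell types in opposite directions on the scaled values. Pdia4, the member with the largest difference, holds neither element in this window. Capitals mark the matched element, and each sequence runs 5′ to 3′ on the strand of its gene.
Hspa5, chr2:34771840-34772089, plus strand: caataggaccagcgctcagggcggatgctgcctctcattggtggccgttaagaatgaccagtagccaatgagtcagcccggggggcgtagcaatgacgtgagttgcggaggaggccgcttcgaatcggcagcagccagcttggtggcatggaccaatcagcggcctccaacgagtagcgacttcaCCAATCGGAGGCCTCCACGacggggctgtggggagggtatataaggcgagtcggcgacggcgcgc
Syvn1, chr19:6046326-6046575, plus strand: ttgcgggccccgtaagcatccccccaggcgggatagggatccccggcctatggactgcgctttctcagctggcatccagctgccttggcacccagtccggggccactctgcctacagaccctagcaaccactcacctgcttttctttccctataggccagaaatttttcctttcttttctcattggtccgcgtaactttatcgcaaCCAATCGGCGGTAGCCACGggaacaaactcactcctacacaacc
Pdia4, chr6:47813513-47813762, minus strand: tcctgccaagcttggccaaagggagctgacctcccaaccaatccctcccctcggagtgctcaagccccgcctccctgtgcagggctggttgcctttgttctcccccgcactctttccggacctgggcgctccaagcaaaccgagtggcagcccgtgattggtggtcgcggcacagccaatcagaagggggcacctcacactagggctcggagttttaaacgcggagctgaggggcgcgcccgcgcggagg

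Levels are FPKM (fragments per kilobase of gene length, normalised to the reads of the library) divided by 1 scaling factor per library (median of ratios, 0.619 to 2.16). Read totals, recovered from the steps of the FPKM values, ran from 7241651 to 19347752 per library, and a member was covered by 25 to 8088 reads in a library, with a median of 571, so counting error bears most on the low members. The library TrB_KO replicate 3 stood apart, with 61.6% of its reads in the listed genes against 16.7% to 20.9% in the other transitional libraries and 285 listed genes at 0 against 30 to 52. Kdm1a stood at 8.45, 7.85 and 3.44 in the TrB_WT libraries, at 3.31, 2.54 and 2.96 in TrB_KO, at 7.46, 8.55 and 4.63 in eMZB_WT, and at 2.63, 2.51 and 2.64 in eMZB_KO. Both libraries labelled wild type replicate 3 therefore lay below their group's other libraries in the targeted gene. Transitional markers (4 of 5 listed, among them Cd93 and Cd24a) summed to 386 to 511 in the TrB libraries and 133 to 160 in the eMZB libraries, and marginal zone markers (6 of 6, among them Cr2 and Cd1d1) to 158 to 193 and 340 to 387, so both sorts carried markers of their labelled type. Cd93 and Cr2 encode CD93 and CD21, on which TrB and eMZB were sorted, so these sums are not independent of the sorts. Cd1d1, which encodes the CD1d used in the eMZB sort, was 22.1 in TrB_WT and 22.6 in eMZB_WT. B cell markers (6 of 6) summed to 2005 to 2327 in TrB_WT and 1148 to 1277 in eMZB_WT, with 5 of them called lower on the scaled values, all but Ptprc. Also lower in eMZB_WT on that scale were Vim, the 1 listed stromal marker, Hbb-bs, the 1 listed erythroid marker, and 2 of 3 listed macrophage markers, Adgre1 and Itgam, at 2.25 and 0.881 in TrB_WT and 0.655 and 0.276 in eMZB_WT. The part of these markers in the cell type differences of the members was not tested. No gene of the T cell, neutrophil, NK cell or platelet lists was among the listed genes.

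The ER genes were among the more abundant transcripts of these cells. Per kilobase, the most abundant members by the mean of the 4 groups were Calr at 79.1, Pdia4 at 75.4, Hsp90b1 at 69.2, Hspa5 at 65.7 and Herpud1 at 42.0, and the least abundant were Sec63 at 3.37 and Dnajb9 at 3.25. Calr, the glycoprotein-binding lectin of the lumen, lay above 98.5% of the listed genes, and Dnajb9, a BiP co-chaperone, above 39.4%. The order of the members differed between the cells. Calr was first in TrB_WT and TrB_KO, whereas Pdia4 was eighth and sixth there and first in eMZB_WT and eMZB_KO. Txndc5 went the other way, being the third most abundant member in both transitional groups, the 11th in eMZB_WT and the 17th in eMZB_KO. In TrB the summed level of the 40 genes was 793 ± 40.1 (SD, n = 3 libraries, as in all values below) for the wild type and 869 ± 65.5 for the knockout, and in eMZB it was 981 ± 53.3 and 957 ± 56.1. As a share of a library's FPKM these sums were 0.796%, 0.866%, 0.960% and 0.942%. Since each library is a bulk sample, a smaller share of cells of a type and less RNA per cell cannot be told apart in any of these values.

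**Figure D1:**
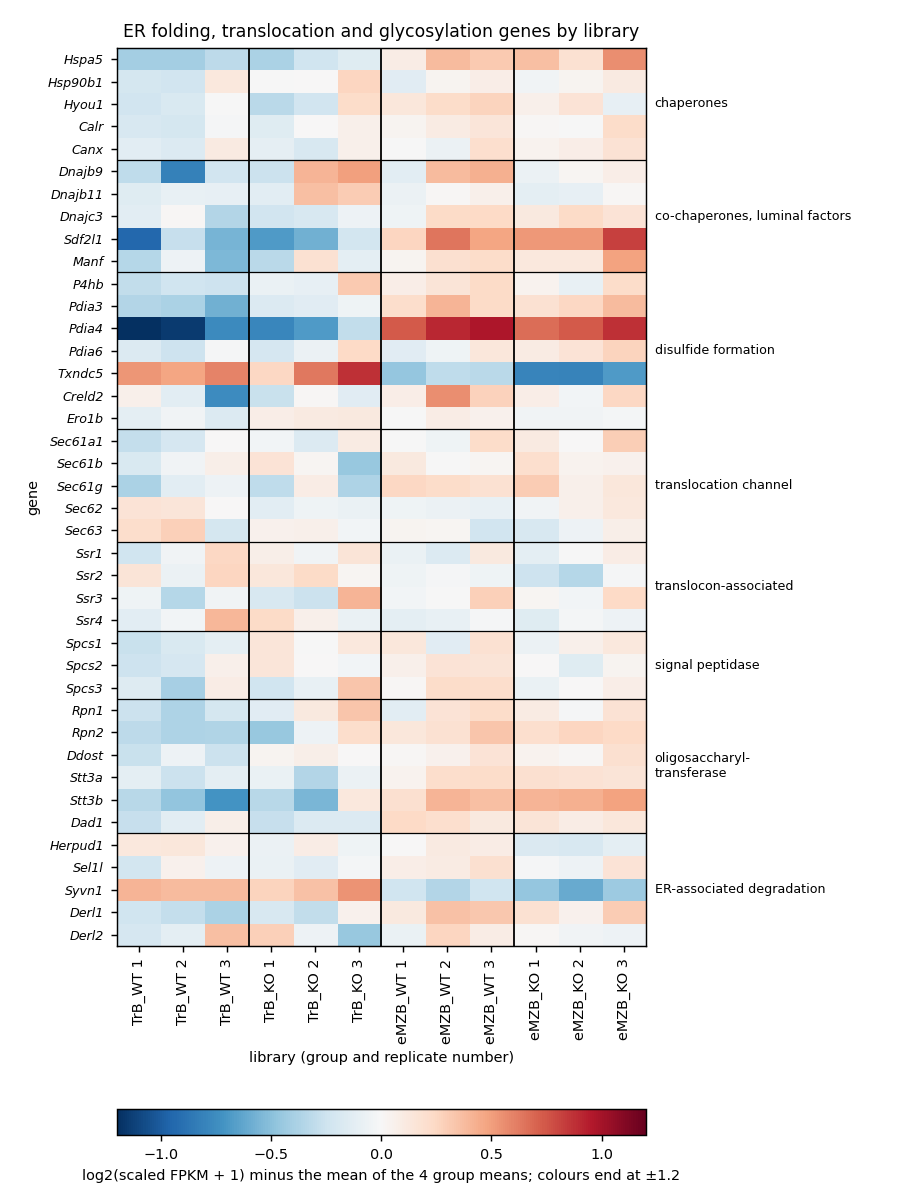
Level of each of the 40 genes (rows, grouped by role) in each of the 12 libraries (columns), as log2(scaled FPKM + 1) minus the mean of the 4 group means of that gene; red is above and blue below that mean. Pdia4 and Sdf2l1 are blue in all 6 transitional libraries and red in all 6 eMZB libraries, and Txndc5 and Syvn1 show the opposite on this scale (as deposited, the wild-type log2 difference of Syvn1 is 0.18).

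The first comparison asked how the folding machinery of eMZB differed from that of the transitional cells they came from, in wild-type cells. A gene is called higher or lower where the limma fit over all genes gave a Benjamini-Hochberg adjusted p under 0.05. In eMZB_WT, 16 of the 40 genes were higher and 2 were lower than in TrB_WT. Over all 9842 genes, 14.7% were called higher and 12.7% lower. The median log2 difference of the members was 0.25, against -0.00 for all genes, and 32 of the 40 differences were above 0. The libraries of both groups did not overlap for 25 members, with 45.1% of all genes in that state. The 22 members that were not called lay between -0.17 and 0.35.

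These counts depend on single libraries and on the scale. Without eMZB_WT replicate 3 the fit called 7 members higher, without TrB_WT replicate 1 or without eMZB_WT replicate 2 it called 9 each, and without both libraries labelled wild type replicate 3 it called 9; in these 4 fits 10.9% to 12.6% of all genes were called higher. With FPKM as deposited the median of all genes moved by 0.67 on the log2 scale, 12 members were called higher and none lower, and 35 members lay above the median of all genes, against 32 on the scaled values.

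Among the chaperones, 1 of 5 was called, Hspa5, whose product BiP binds unfolded chains throughout the lumen. Hspa5 stood at 47.8, 47.9 and 51.3 in the TrB_WT libraries and at 68.2, 83.6 and 79.4 in eMZB_WT. Every eMZB_WT library was above every TrB_WT library, and the means differed 1.57-fold (log2 difference 0.64 ± 0.11 SE, adjusted p = 0.000929 in limma). Hsp90b1, the luminal Hsp90 known as GRP94, had 59.6, 58.6 and 75.2 in TrB_WT and 62.5, 70.4 and 72.8 in eMZB_WT. These ranges overlapped, and the log2 difference of 0.09 had a 95% interval from -0.14 to 0.33. Some exon bases of Hsp90b1 (415) also belong to the listed gene 1810014B01Rik on the other strand, and the library kit does not mark strand, so reads there cannot be assigned to one of them. Calr had 68.7, 68.1 and 78.1 in TrB_WT and 80.9, 84.6 and 87.2 in eMZB_WT, without overlap (log2 difference 0.23, adjusted p = 0.0713 in limma). Canx, the membrane-bound lectin, and Hyou1, which exchanges nucleotide on BiP, differed by 0.10 and 0.35 and were not called.

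Of the co-chaperones and stress-induced factors 3 of 5 were higher, namely Sdf2l1, Dnajb9 and Manf, and none was lower. Sdf2l1, a partner of the BiP co-chaperone ERdj3, stood at 3.48, 6.06 and 4.83 in TrB_WT and at 9.23, 12.4 and 10.9 in eMZB_WT. Its groups were well apart, with means that differed 2.27-fold (log2 difference 1.05 ± 0.17 SE, adjusted p = 0.000829 in limma). Dnajb9 (ERdj4) was low, at 2.32, 1.34 and 2.504 in TrB_WT and 2.76, 4.36 and 4.52 in eMZB_WT, a log2 difference of 0.68 (adjusted p = 0.0356 in limma). Manf, a secreted factor that binds BiP, differed by 0.46 (adjusted p = 0.0438 in limma) and shares 146 exon bases with Dcaf1 on the other strand. The calls of Dnajb9 and Manf were kept in 7 and 5 of the 12 fits that left out 1 library. The remaining co-chaperones Dnajb11 (ERdj3) and Dnajc3 (p58IPK) differed by 0.11 and 0.29 and were not called.

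Disulfide formation held the largest difference in either direction. Pdia4 (ERp72), an isomerase with several thioredoxin-like domains, lies on chromosome 6 (47796141 to 47813512, GRCm38). It stood at 27.2, 28.4 and 37.2 in TrB_WT and at 107, 121 and 127 in eMZB_WT. The lowest eMZB_WT library was far above the highest TrB_WT library, and the means of 31.0 ± 5.48 and 118 ± 9.92 differed 3.82-fold (log2 difference 1.91 ± 0.14 SE, adjusted p = 1.14e-06 in limma). Pdia3 (ERp57), the isomerase that works with calreticulin and calnexin, had 28.5, 27.9 and 24.3 in TrB_WT and 42.4, 48.8 and 43.1 in eMZB_WT. It was higher in every eMZB_WT library (log2 difference 0.72 ± 0.09 SE, adjusted p = 9.14e-05 in limma). P4hb, the founding protein disulfide isomerase, and Creld2, a luminal isomerase-like factor, were higher by 0.41 and 0.58 (adjusted p = 0.0172 and 0.0372 in limma). Pdia6 (P5) and Ero1b, the oxidase that recharges the isomerases, differed by 0.12 and 0.16 and were not called.

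Txndc5 (ERp46), a further thioredoxin-domain protein of the lumen, on chromosome 13 (38500266 to 38528824), was the member with the largest fall. It stood at 53.0, 50.8 and 55.3 in TrB_WT and at 26.1, 29.3 and 28.8 in eMZB_WT. All 3 eMZB_WT libraries were below all TrB_WT libraries, a log2 difference of -0.90 ± 0.13 SE (adjusted p = 0.000243 in limma). With FPKM as deposited the difference was -0.05 (adjusted p = 0.935 in limma), where the median gene was at 0.67. On the scaled values, Pdia4 and Txndc5, of 1 family of enzymes, therefore moved in opposite directions by more than the spread of their libraries.

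Of the translocation channel 1 of 5 genes was higher, Sec61g, the smallest channel subunit. It had 12.7, 15.3 and 16.0 in TrB_WT and 20.1, 19.7 and 19.1 in eMZB_WT (log2 difference 0.40 ± 0.13 SE, adjusted p = 0.0303 in limma). The groups did not overlap, but an annotated transcript, Gm10177, is identical to Sec61g over 420 bases, so the assignment of its reads is uncertain. The pore subunit Sec61a1, the subunit Sec61b and the post-translational translocation factors Sec62 and Sec63 differed by 0.22, 0.10, -0.17 and -0.15 and were not called. None of the 4 genes of the translocon-associated protein complex (Ssr1, Ssr2, Ssr3 and Ssr4), which assists the channel with some substrates, was called. Ssr3, with the largest difference of them, had 6.77, 5.35 and 6.83 in TrB_WT and 6.85, 7.01 and 8.80 in eMZB_WT, a log2 difference of 0.23 with a 95% interval from -0.14 to 0.59. The 3 accessory subunits of signal peptidase were not called either, although Spcs1, Spcs2 and Spcs3 were all positive, at 0.25, 0.26 and 0.30. Spcs3 had 12.3, 10.3 and 14.8 in TrB_WT and 14.0, 16.3 and 16.2 in eMZB_WT, with overlap.

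Oligosaccharyltransferase was the role in which every member was higher, with 6 of 6 genes called, and for each of them the lowest eMZB_WT library lay above the highest TrB_WT library. Stt3b, the catalytic subunit that glycosylates sites left over after translocation, stood at 13.5, 12.1 and 10.1 in TrB_WT and at 19.8, 23.1 and 22.3 in eMZB_WT. It differed 1.83-fold (log2 difference 0.83 ± 0.15 SE, adjusted p = 0.00158 in limma). Stt3a, the catalytic subunit that acts during translocation, was higher by 0.32 (adjusted p = 0.0218 in limma). The shared subunits Rpn2, Rpn1, Dad1 and Ddost were higher by 0.57, 0.37, 0.30 and 0.27, with adjusted p = 0.00739, 0.046, 0.0363 and 0.0338 in limma. The calls of Stt3b and Rpn2 were kept in all 12 fits that left out 1 library, those of Stt3a and Ddost in 9 and 7, and those of Dad1 and Rpn1 in 4 and 3. The summed level of the 6 subunits was 88.2 ± 0.759 in TrB_WT and 122 ± 7.65 in eMZB_WT.

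ER-associated degradation split. Derl1, a membrane protein of the retrotranslocation machinery, was higher by 0.57 ± 0.11 SE (adjusted p = 0.00224 in limma). A processed pseudogene, Gm35638, matches Derl1 over 652 bases at 95.4% identity, so some reads may be shared with it. Syvn1 (HRD1), the ubiquitin ligase of ER-associated degradation, lies on chromosome 19 (6046576 to 6053718) and had 52.6, 51.4 and 51.6 in TrB_WT and 33.2, 30.5 and 33.2 in eMZB_WT. It was lower in every eMZB_WT library on the scaled values, by a log2 difference of -0.67 ± 0.08 SE (adjusted p = 9.58e-05 in limma), and with FPKM as deposited the difference was 0.18 (adjusted p = 0.735 in limma), below the 0.67 of the median gene. Syvn1 shares 91 exon bases with Mrpl49 on the other strand. Its partner Sel1l differed by 0.20 and Derl2 by 0.08, neither called. Herpud1, a stress-induced scaffold of the same complex, had 45.7, 46.2 and 43.3 in TrB_WT and 42.0, 45.3 and 44.5 in eMZB_WT, and its log2 difference of -0.04 had a 95% interval from -0.19 to 0.12.

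**Figure D2:**
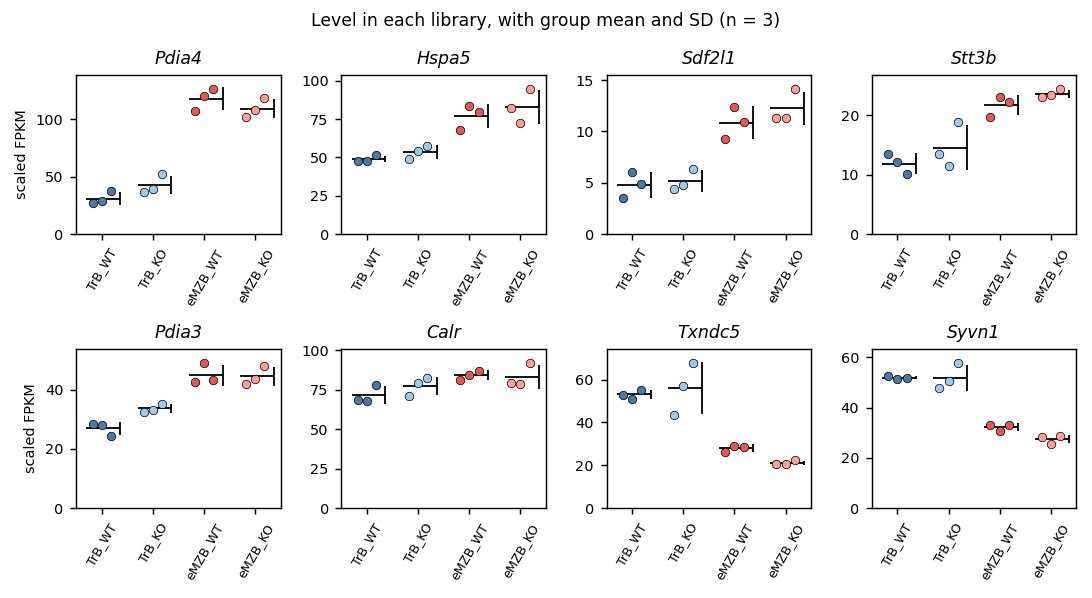
Scaled FPKM of 8 members in each library (points), with the group mean (horizontal line) and SD (vertical line), n = 3 libraries per group; each axis starts at 0. Pdia4 rises from 31.0 in TrB_WT to 118 in eMZB_WT, and Txndc5 falls from 53.0 to 28.1 on this scale; Calr changes little, from 71.6 to 84.2.

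The calls were also counted by promoter, beside the 14.7% of all genes called higher and the 12.7% called lower. Of the 9 genes with the element, 2 were higher (Hspa5 and Creld2), 1 was lower (Syvn1, on the scaled values) and 6 were not called, with a median log2 difference of 0.16. Of the 25 genes with a promoter entry and no match, 12 were higher, 1 was lower and 12 were not called, with a median of 0.26. These are counts without a test, and the absence of a match says only that these letters are not in the 300 bases read.

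The second comparison repeated the first in LSD1-deficient cells, with other libraries. Both came from 1 fit that estimates spread over all 12 libraries, so their calls are not independent. Without eMZB_WT replicate 2, or without eMZB_WT replicate 3, the members called higher here became 7. In eMZB_KO, 9 members were higher and 3 lower than in TrB_KO, where 14.2% of all genes were called higher and 13.2% lower, and the median log2 difference of the members was 0.10. The libraries of both groups did not overlap for 14 members, a state that held for 43.9% of all genes. All 9 genes called higher (Pdia4, Sdf2l1, Stt3b, Hspa5, Pdia3, Sec61g, Stt3a, Dad1 and Derl1) were among the 16 called higher in the wild-type comparison, which is 56.2% of those 16. For all genes, 69.1% of the wild-type higher calls were shared. Without eMZB_KO replicate 1 the fit called 5 members higher, and with FPKM as deposited it called 1 higher, Pdia4, and none lower, with the median of all genes at 0.23.

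Pdia4 stood at 36.8, 39.6 and 52.0 in TrB_KO and at 102, 108 and 119 in eMZB_KO, again without overlap (2.56-fold, log2 difference 1.35 ± 0.14 SE, adjusted p = 2.02e-05 in limma). Sdf2l1 had 4.36, 4.76 and 6.38 in TrB_KO and 11.3, 11.3 and 14.1 in eMZB_KO (log2 difference 1.11 ± 0.17 SE, adjusted p = 0.000569 in limma). Stt3b and Hspa5 were higher by 0.69 and 0.62. The first of these had a TrB_KO library, replicate 3, at 18.8 next to 13.5 and 11.4, while eMZB_KO lay at 23.1, 23.4 and 24.5. Txndc5 was lower by 1.35 on the log2 scale, with 43.5, 57.0 and 67.6 in TrB_KO and 20.5, 20.5 and 22.3 in eMZB_KO (log2 difference -1.35 ± 0.13 SE, adjusted p = 9.27e-06 in limma). Syvn1 was also lower (log2 difference -0.89 ± 0.08 SE, adjusted p = 9.53e-06 in limma), and Ssr2 was lower by a log2 difference of -0.33 (adjusted p = 0.0351 in limma). Replicate numbers may pair the libraries of these 2 groups. With the replicate number as a block Dad1, Sec61g and Ssr2 were no longer called (adjusted p = 0.0534, 0.0964 and 0.0886 in limma with the replicate block).

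The genes called in wild-type cells and not here were Rpn1, Rpn2, Ddost, P4hb, Dnajb9, Creld2 and Manf. The difference between the 2 comparisons is the interaction of the fit, and it was called for none of the 40 members, so these 7 genes are not shown to differ from the other 9. For Dnajb9 the log2 difference was 0.68 in wild type and -0.21 in LSD1-deficient cells, and for Rpn1 it was 0.37 and -0.02.

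**Figure D3:**
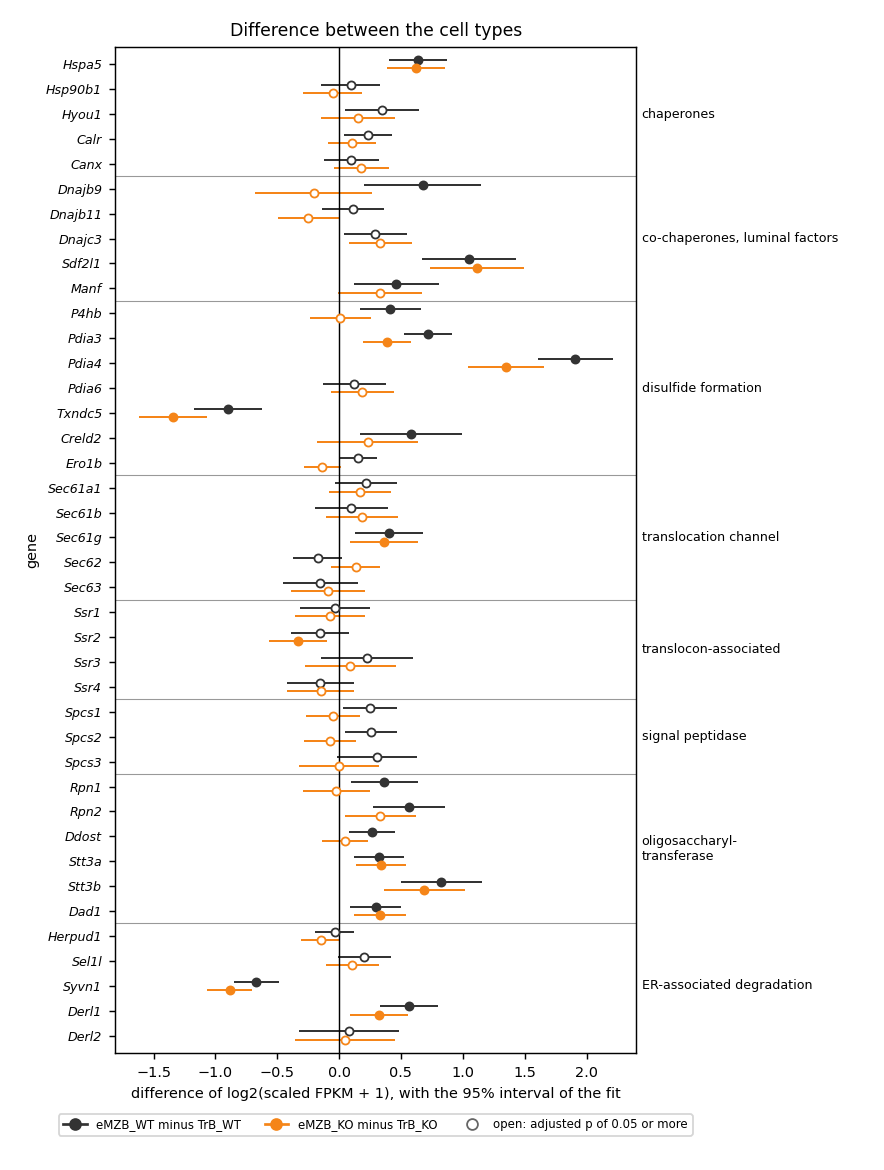
Difference of log2(scaled FPKM + 1) between eMZB and TrB for each of the 40 genes (rows, grouped by role), in wild-type (black) and LSD1-deficient cells (orange), with 95% intervals; filled points have an adjusted p under 0.05. All 6 oligosaccharyltransferase subunits are filled in black and 3 of them in orange, and Syvn1 and Txndc5 lie to the left in both on this scale (as deposited, Syvn1 is at 0.18 in wild type).

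The third comparison asked what loss of LSD1 did to these genes in unstimulated transitional cells. In TrB_KO none of the 40 members was called by limma against TrB_WT, and none by voom on the reads recovered from the FPKM values. Of all genes 0.386% were called higher and 0.112% lower. The targeted gene Kdm1a was not called either (log2 difference -0.87, adjusted p = 0.249 in limma). The absence of a call therefore does not show the absence of a difference. At an unadjusted p under 0.05 there were 9 members, all of them higher in TrB_KO, both in limma and in voom. In the limma fit 5.91% of all genes were higher and 3.99% lower at that level. The median log2 difference of the members was 0.13, against 0.01 for all genes. The 9 genes were Pdia3, Pdia4, Rpn1, Dnajb9, Ero1b, Spcs1, P4hb, Ddost and Dnajb11. With quantile normalization 6 members were higher and 2 lower at the unadjusted level, and with FPKM scaled to an equal sum 9 and 1. Without TrB_KO replicate 3 the median of the members was 0.07, against 0.01 for all genes. In the fit of genes with a mean scaled FPKM of at least 5, 8 of 35 members were higher and 0 lower at the unadjusted level. Of the genes in that fit, 8.37% were higher and 1.48% lower. The medians were 0.13 for the members and 0.05 for those genes.

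Pdia3 had the smallest p of the members, with 32.5, 33.2 and 35.3 in TrB_KO against 28.5, 27.9 and 24.3 in TrB_WT. These libraries did not overlap (log2 difference 0.32 ± 0.09 SE, adjusted p = 0.224 in limma). Pdia4, at 36.8, 39.6 and 52.0 against 27.2, 28.4 and 37.2, overlapped (log2 difference 0.45 ± 0.14 SE, adjusted p = 0.264 in limma). Rpn1, the oligosaccharyltransferase subunit that holds nascent chains near the active site, had 14.2, 17.1 and 20.1 in TrB_KO and 12.9, 11.9 and 13.5 in TrB_WT (log2 difference 0.38 ± 0.12 SE, adjusted p = 0.296 in limma). The highest of the TrB_KO values of Pdia4 and Rpn1 came from replicate 3, the library that stood apart. Without it 7 members had an unadjusted p under 0.05, all higher, the differences of Pdia3, Pdia4 and Rpn1 were 0.28, 0.31 and 0.27, and none was called. Without both libraries labelled wild type replicate 3, in which Kdm1a was low, 10 members were higher and 1, Sec62, was lower at that level, none was called, and Pdia4 differed by 0.59 (adjusted p = 0.0882 in limma). The intervals around the values from all libraries ran from 0.12 to 0.51 for Pdia3 and from 0.15 to 0.76 for Pdia4.

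Antibody-secreting cells carry large amounts of these transcripts, so their markers stand beside this comparison. Of 11 plasma cell markers 8 were listed, and their summed level in wild-type cells was 135 to 165 in TrB and 200.2 to 207 in eMZB. In LSD1-deficient cells it was 167 to 214 in TrB and 170.4 to 191 in eMZB. Mzb1, itself on the list of luminal enzymes below, had the highest level of these markers in every library. It was 63.8 ± 5.23 in TrB_WT and 121 ± 4.23 in eMZB_WT, and 75.6 ± 7.79 in TrB_KO and 115 ± 7.06 in eMZB_KO. Apart from Mzb1, the mean summed level of the listed markers was not higher in eMZB than in TrB in either genotype. Jchain, which links antibody polymers, stood at 0.401, 21.6 and 24.0 in TrB_WT, at 17.7, 41.6 and 58.6 in TrB_KO, at 9.02, 12.5 and 14.3 in eMZB_WT and at 0.651, 4.22 and 5.22 in eMZB_KO. The list shares Xbp1, Mzb1 and Derl3 with other lists used here. Sdc1 (CD138) was between 0.603 and 2.91 in every library, and Tnfrsf17, Ighg1 and Igha were not among the listed genes. Prdm1, the factor that commits a B cell to antibody secretion, was 0.621 ± 0.0883 in TrB_WT, 0.730 ± 0.116 in TrB_KO and 1.55 ± 0.186 in eMZB_WT, where it was called higher than in TrB_WT (adjusted p = 0.00318 in limma), and 0.882 ± 0.0808 in eMZB_KO. Of the 8 listed markers 3 were higher and 1 was lower in eMZB_WT than in TrB_WT, 1 was higher and 3 were lower in eMZB_KO than in TrB_KO, and none was called with LSD1 loss in either cell type. Their part in the results for the ER genes was not tested.

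The fourth comparison addressed loss of LSD1 in eMZB. None of the 40 members was called in eMZB_KO against eMZB_WT by limma or by voom, with 0.335% of all genes called higher and 0.0711% lower. Kdm1a was not called here either (log2 difference -1.10, adjusted p = 0.149 in limma), so a lack of calls does not show a lack of differences. At an unadjusted p under 0.05, 3 members were lower and none was higher in limma and in voom, where 2.23% and 3.16% of all genes were lower and higher in limma. Herpud1 stood at 37.0, 36.6 and 38.5 in eMZB_KO and at 42.0, 45.3 and 44.5 in eMZB_WT (log2 difference -0.23 ± 0.07 SE, adjusted p = 0.483 in limma). Txndc5 had 20.5, 20.5 and 22.3 against 26.1, 29.3 and 28.8 (log2 difference -0.40 ± 0.13 SE, adjusted p = 0.501 in limma), and Syvn1 had 28.2, 25.6 and 28.9 against 33.2, 30.5 and 33.2 (log2 difference -0.22 ± 0.08 SE, adjusted p = 0.737 in limma). The libraries of both groups did not overlap for these 3 genes and for Sec62, Spcs2 and Ero1b, 6 of the 40 members, against 18.4% of all genes. Without both libraries labelled wild type replicate 3, 2 members were lower at the unadjusted level (Herpud1 and Txndc5), 1 was higher (Pdia6) and none was called. With only the 2 groups compared in the fit, Txndc5 was called lower (adjusted p = 0.0496 in limma), and no other member was called.

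**Figure D4:**
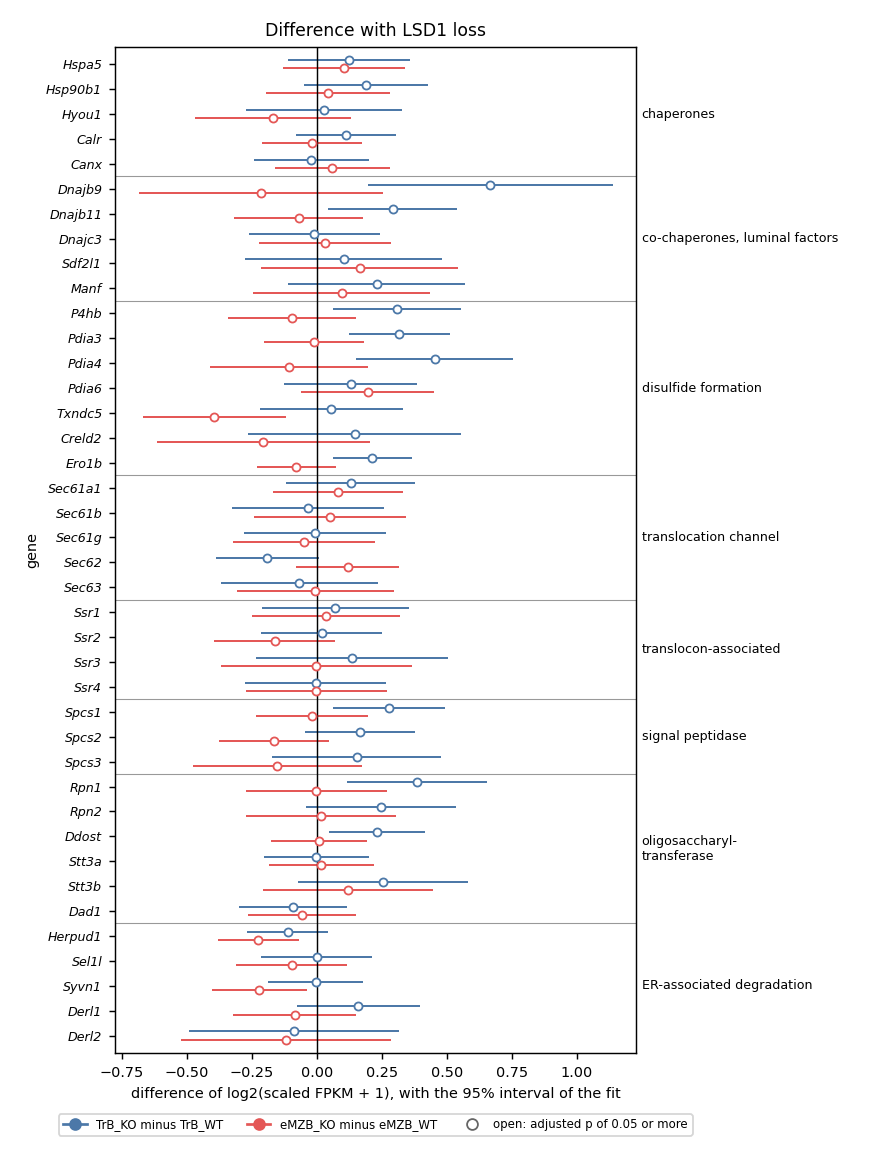
Difference of log2(scaled FPKM + 1) between LSD1-deficient and wild-type cells for each of the 40 genes (rows, grouped by role), in TrB (blue) and eMZB (red), with 95% intervals. Every point is open, since no member had an adjusted p under 0.05; the median is 0.13 in TrB and -0.02 in eMZB.

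Whether LSD1 loss acted differently on these genes in the 2 cell types was asked by the interaction, the eMZB response minus the TrB response. It was called for no member in limma or in voom, and for 0.0102% of all genes in the positive direction and 0% in the negative direction. At an unadjusted p under 0.05 there were 9 negative members and 1 positive member, Sec62, in limma, and the same numbers in voom; of all genes 3.98% were negative and 2.88% positive in limma. The 3 members with the smallest p were Ero1b, Dnajb9 and Pdia4, each with an adjusted p of 0.686 in limma. Ero1b stood at 15.5, 16.4 and 14.97 in TrB_WT, 17.96, 18.3 and 18.5 in TrB_KO, 16.9, 18.1 and 17.6 in eMZB_WT, and 16.4, 16.5 and 16.7 in eMZB_KO. It was thus above wild type in all TrB_KO libraries and below it in all eMZB_KO libraries, by log2 differences of 0.21 and -0.08 (interaction -0.29 ± 0.10 SE). Dnajb9, at 2.45, 4.47 and 4.78 in TrB_KO and 2.91, 3.18 and 3.34 in eMZB_KO, had log2 differences of 0.67 and -0.22 (interaction -0.88 ± 0.31 SE). The number of negative members was 4 without eMZB_KO replicate 2 or eMZB_WT replicate 3, and 5 without both libraries labelled wild type replicate 3, or without TrB_KO replicate 3, TrB_WT replicate 1, eMZB_KO replicate 1 or eMZB_WT replicate 2, and no member was called in any of these fits. Abundant genes as a whole also leaned negative. In the fit of genes with a mean scaled FPKM of at least 5, 5.95% were negative and 1.60% positive at the unadjusted level. There 8 of 35 members were negative and 0 positive.

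Regulators of the unfolded protein response were compared in the wild-type cells. Of 13 listed regulators 6 were higher and 1 was lower in eMZB_WT, against 14.7% and 12.7% of all genes. The median log2 difference of the list was -0.02, with 6 genes above 0 and 7 below. Atf4, the effector of the PERK branch, was 21.4 ± 2.48 in TrB_WT and 33.2 ± 2.67 in eMZB_WT (log2 difference 0.62, adjusted p = 0.000708 in limma). Its targets Ddit3 (CHOP) and Trib3 went from 6.74 ± 1.09 to 13.6 ± 2.85 and from 0.174 ± 0.106 to 4.38 ± 0.870. Xbp1 was 16.6 ± 2.33 and 25.7 ± 3.80 (log2 difference 0.60, adjusted p = 0.00605 in limma), with 20.8 ± 2.90 in TrB_KO and 21.8 ± 1.75 in eMZB_KO, where the difference between the cell types was 0.07 and not called. The sensor Ern1 (IRE1), which splices Xbp1, was lower on the scaled values (1.87 ± 0.285 against 1.125 ± 0.128, adjusted p = 0.0395 in limma), with a difference of 0.08 as deposited. The sensors Atf6 and Eif2ak3 (PERK) differed by -0.21 and -0.59, or 0.55 and 0.17 as deposited, and were not called. FPKM per gene does not tell spliced from unspliced Xbp1.

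Genes that work beside the members are set against the 14.7% of all genes called higher and the 12.7% called lower. Of 31 genes that build or trim the N-glycan, none was higher and 2 were lower in eMZB_WT, Dpm2 and Alg12, by log2 differences of -0.37 and -0.40, which were 0.45 and 0.24 as deposited. Among 20 other subunits of oligosaccharyltransferase, signal peptidase and the translocon, 3 were higher (Ost4, Tusc3 and Emc2) and Tram2 was lower, from 6.29 ± 0.664 to 2.07 ± 0.697. In the list of 20 other disulfide isomerases and luminal enzymes 5 were higher and 2 lower. Among them Mzb1, a BiP-associated chaperone of antibody assembly, went from 63.8 ± 5.23 to 121 ± 4.23 and Erp44 from 10.2 ± 1.60 to 19.7 ± 0.884, while Txndc11 and Erp29 were lower by log2 differences of -0.67 and -0.43 (0.09 and 0.35 as deposited). Other ER-associated degradation genes had 3 higher, Vcp among them, and 2 lower of 25, Edem3 and Os9, with log2 differences of -0.78 and -0.44 (-0.10 and 0.36 as deposited).

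Export from the ER and entry into it were compared against the same shares of all genes, 14.7% higher and 12.7% lower. Of 21 genes of the COPII coat and ER export 2 were higher, Kdelr2, a receptor that returns luminal chaperones, and Lman1, and Tmed9 was lower by a log2 difference of -0.61 (0.21 as deposited). Of 8 genes of the signal recognition particle and its receptor 3 were higher, Srp19, Srp54a and Srprb, and Srp14 was lower by a log2 difference of -0.44 (0.41 as deposited). Srp54a, the subunit that binds the signal sequence, was the gene of this list called with LSD1 loss in both cell types. It had 4.43, 4.16 and 5.57 in TrB_WT, 10.3, 9.78 and 11.7 in TrB_KO, 6.41, 6.85 and 6.82 in eMZB_WT, and 11.7, 12.2 and 12.4 in eMZB_KO. Those libraries did not overlap between genotypes, with log2 differences of 1.02 (adjusted p = 0.000369 in limma) in TrB and 0.77 (adjusted p = 0.00556 in limma) in eMZB. Srp54a stands in a group of near-identical gene copies in the mouse genome, so its reads may be shared with them.

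Protein quality control outside the ER was compared in the same way. Against the 14.7% of all genes called higher, of 31 proteasome subunits 10 were higher and 1 was lower in eMZB_WT, with a median log2 difference of 0.23, close to the 0.25 of the ER genes. Of 19 cytosolic chaperones 16 were higher and none was lower, with a median of 0.52. Hspa8, the constitutive cytosolic Hsp70, went from 40.7 ± 3.87 to 101 ± 3.16. Of the 5 ER chaperones, 1 was called higher. No test compared the lists with each other.

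**Figure D5:**
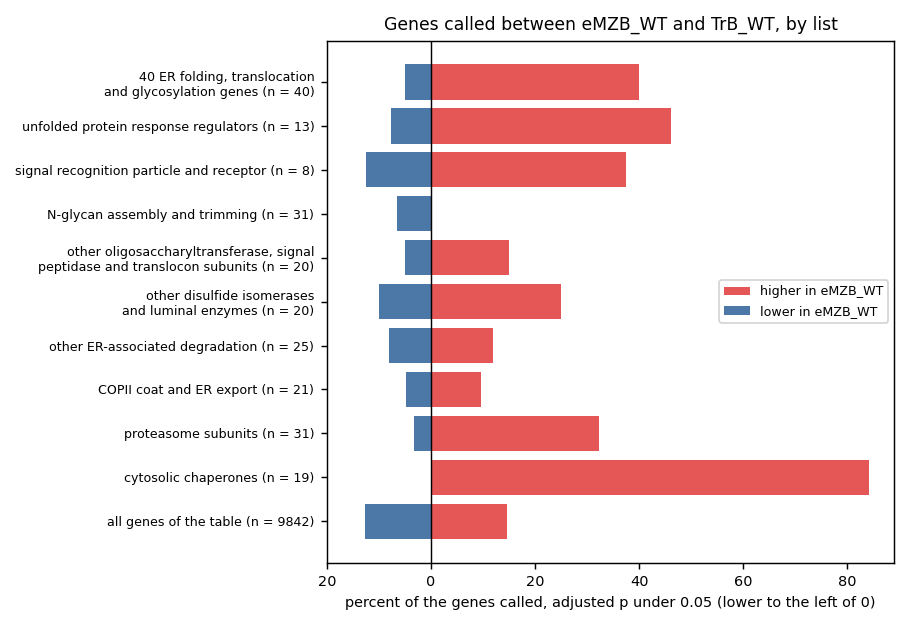
Percent of the genes of each list called higher (red, right of 0) or lower (blue, left of 0) in eMZB_WT than in TrB_WT; the number of listed genes stands beside each name and the lowest bar pair shows all 9842 genes. The ER genes (16 of 40 higher) lie between the N-glycan list (0 of 31) and the cytosolic chaperones (16 of 19).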

How the data were processed

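The expression table holds FPKM, as the authors deposited it, for each gene in each library. STAR and the mm10 build are named in the submitters' processing notes; the counting program, annotation and filters are not given in the sources used. Per the labels' protocols, cDNA synthesis used SMART-Seq v4 and library preparation Nextera XT, which does not mark strand. Whole reads were recovered from the deposited FPKM for all 9842 genes (100% of genes, within 0.02 reads), and 9833 identifiers matched a symbol; 0 value columns were unused.

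FPKM was divided by median-of-ratios factors over the 9446 genes above 0 in all libraries. Log2(value + 1) was fitted with limma 3.58.1 (R 4.3.3; lmFit on 4 group means, contrasts, eBayes with trend, 8 residual degrees of freedom) with Benjamini-Hochberg adjustment over all genes and a threshold of 0.05; a fold on this scale understates the change of low genes. Alternatives were FPKM as deposited, scaled to an equal sum per library, quantile normalization, pseudocount 0.1, a mean scaled FPKM of at least 5, only the groups compared, the replicate number as a block, voom on recovered reads, leaving out both wild-type libraries numbered 3, and leaving out each library. Read intervals would cover counting error only, because reads copied by PCR without molecular identifiers are not separate molecules.

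Same-numbered TrB_KO and eMZB_KO libraries deviated together over genes (correlations 0.161, 0.106 and 0.292), a pairing taken from the numbers in the labels. Between replicates 1 and 2 the differently numbered libraries correlated at 0.119 and 0.0831, so these values do not tell replicates 1 and 2 apart. Differently numbered pairs with replicate 3 lay between -0.248 and -0.156. In the other pairs of groups at least 1 same-numbered correlation was under 0.1. The members and gene lists were chosen with earlier results of these data known. Values in every library are given for the 5 most abundant members, the member of each role with the largest wild-type cell type difference, the 3 with the smallest p in each LSD1 comparison and the interaction, and members lower in eMZB_WT; from other lists, genes were taken from those with the smallest p. Promoters come from RefSeq (GRCm38.p6) and shared exons and near-identical transcripts from GENCODE M21. Figures were drawn with Python 3.11.15 and matplotlib 3.10.9.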

Additional observations from a re-analysis of the deposited data

How the results depend on the processing

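The count of members called higher in eMZB_WT was 16 and became 10 with FPKM scaled to an equal sum, 10 with voom on recovered reads and 9 without both wild-type libraries numbered 3, and it ran from 7 to 18 when 1 library was left out. As deposited, 0 members were lower in eMZB_WT, 1 was higher and 0 were lower in eMZB_KO, and Syvn1 changed sign in the wild-type comparison (0.18). Higher calls in eMZB_KO ran from 5 to 11 without 1 library. With only the 2 groups in the fit, 1 member (Txndc5) was lower in eMZB_KO than in eMZB_WT. Fits that left out a library rest on fewer samples by construction; the cause of these changes was not tested. The replicate block within 2 groups gave 13 higher and 2 lower in wild type and 7 higher and 2 lower in LSD1-deficient cells; over all libraries these were 17 and 2, and 8 and 3. The block called no member with LSD1 loss. Of 659 values of called members under an alternative, 527 kept their call, 131 lost it and 1 reversed. Hspa5, Sdf2l1, Pdia3, Pdia4, Stt3b and Derl1 kept the wild-type call in all 22 settings. No setting addressed the assignment of reads to Derl1 and its pseudogene copy. Spcs1 and Derl2 share 252 and 231 exon bases with the listed genes Glt8d1 and Mis12 on the other strand. Low members are limited by depth, down to 25 reads in a library.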
